A study of Mus musculus with 9 samples.

Results

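Mitochondrial respiratory chain subunits were followed as a set of 84 genes among the 31804 genes of the count table, in mouse hippocampus in which the transcription factor gene Camta1 had been knocked down. Members were taken by symbol. The prefixes were Ndufa, Ndufb, Ndufc, Ndufs and Ndufv, Sdh, Uqcr, Cox4, Cox5, Cox7 and Cox8, Atp5, and mt-Nd, mt-Co, mt-Atp and mt-Cyt, and a total of at least 90 counts over the 9 libraries was required. Of 103 matching symbols, 7 assembly genes starting with Ndufaf and 1 pseudogene were left out, and 11 of the 95 that remained had fewer than 90 counts. The 84 members comprise 78 encoded in the nucleus and 6 encoded in the mitochondrial genome. By prefix, 42 belong to complex I, 5 to complex II, 9 to complex III, 11 to complex IV and 17 to complex V. The prefixes also bring in genes that are not subunits, such as Sdhaf2, which helps attach the flavin to Sdha. The rule used no measured value beyond the minimum count, but it was chosen with earlier results of these data known.

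The respiratory chain sits in the inner mitochondrial membrane. Complexes I and II take electrons from NADH and from succinate, complex III passes them by way of cytochrome c to complex IV, which reduces oxygen, and complex V uses the proton gradient built along the way to make ATP. Complex II is encoded wholly in the nucleus, while each of the others joins subunits from both genomes, and neurons rely on this pathway for most of the ATP that synaptic activity consumes.

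All groups were male C57BL/6NCrl mice whose dorsal hippocampus received a recombinant adeno-associated virus at 8 weeks of age, with the tissue taken 3 weeks later. One group carried a hairpin RNA without a target (control), and the other groups carried Camta1 shRNA A or Camta1 shRNA B, different sequences directed at the same transcript, with 3 animals per group by the series' design. The infected tissue was recognised by mCherry and cut out under a microscope, so the samples hold infected and uninfected cells of every type in that tissue. PolyA RNA was sequenced without keeping the strand.

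Library totals lay between 29123744 and 38189288 counts. Camta1 stood at 426, 455 and 441 CPM in the controls (CPM: reads per library scaled so that libraries of unlike depth and composition can be compared), 230, 174 and 254 under hairpin A, then 238, 145 and 266 under hairpin B, and both hairpin groups lay below every control. Certain libraries and cell type marker sums differed in ways the group labels do not describe. Control replicate 3 held 1044 CPM of summed choroid plexus markers (6 genes tested) against 25.2 to 47.3 CPM in the other 8 libraries. Oligodendrocyte markers (10 genes) summed to 3036 to 4963 CPM in the controls, 4275 to 6692 under hairpin A, then 3437 to 7004 under hairpin B. Their log2 fold changes were above 0 in 10 with shRNA A and 9 with shRNA B (medians 0.422 and 0.305), and 0 were called. Neuron markers (14 genes) summed to 17070 to 19420 CPM in the controls, 16800 to 17840 under hairpin A, then 17220 to 17770 under hairpin B. With each hairpin 13 of these 14 had a log2 fold change below 0, with medians of -0.07 and -0.11, and 0 were called. Astrocyte markers (10 genes) summed to 3860 to 4270 CPM in the controls, 3910 to 4402 under hairpin A, then 3846 to 4196 under hairpin B. With shRNA B, 1 of 10 was called higher, but 7 of 10 had a log2 fold change below 0 (median -0.03). With shRNA A, 8 of 10 were above 0 and 0 were called. Microglia markers (10 genes) summed to 504.7 to 542.8 CPM in the controls, 539.7 to 607.5 under hairpin A, then 611.3 to 687.5 under hairpin B, with 3 of 10 called higher with shRNA B. Meningeal markers (8 genes) summed to 67.5 to 121.9 CPM in the controls, 53.7 to 66.5 under hairpin A, then 54.9 to 61.2 under hairpin B, with 1 of 8 called lower with shRNA B. All 8 had log2 fold changes below 0 with each hairpin, with medians of -0.60 and -0.70.

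The mitochondrial genome encodes 13 proteins, all of them subunits of the chain, and the 13 genes fell into 2 kinds in the count table. The first kind, with 6 genes, held mt-Nd1, mt-Nd2, mt-Nd5 and mt-Nd6 of complex I, mt-Cytb of complex III and mt-Co1 of complex IV, with totals between 235472 and 3478861 counts. The other 7 had almost none: mt-Co2 had 45 counts in all 9 libraries together, mt-Atp8 had 8, mt-Nd3 and mt-Nd4l had 1 each, and mt-Atp6, mt-Co3 and mt-Nd4 had 0. A count of 0 in a library allows up to 3 counts, or 0.0775 to 0.102 CPM, by counting error alone. These 7 genes are neighbours, the fourth to the tenth in the order on the mitochondrial chromosome, as the plot of the mitochondrial genes shows.

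The same 7 genes were compared, in stretches of 50 bases, with the transcripts of all other genes in GENCODE M21 (build GRCm38). Of the 50-base stretches of mt-Co2, 100% also occur in another gene's transcript, and the shares were 99.9% for mt-Co3, 99.5% for mt-Atp6, 98.8% for mt-Nd4l, 98.0% for mt-Nd3 and 62.2% for mt-Nd4. The partner of each is an annotated pseudogene on chromosome 1, a nuclear copy of mitochondrial DNA. The exception was mt-Atp8, with 8 counts and 0% shared. Among the 6 members, mt-Nd1, mt-Nd6 and mt-Cytb shared 0%, mt-Nd5 7.61%, mt-Nd2 8.19% and mt-Co1 51.1%. The opening bases of mt-Co3, the membrane subunit III of complex IV with 0 counts, and of its nuclear copy Gm28437 are shown because they cannot be told apart, and the 783 aligned bases are identical throughout. A stretch of mt-Nd2 (bases 549 to 608 of its transcript), which had 785727 counts, is set beside bases 21 to 80 of Gm13339 on chromosome 2, with the 2 mismatched bases in capitals.
mt-Co3: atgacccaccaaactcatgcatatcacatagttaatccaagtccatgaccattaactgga
Gm28437: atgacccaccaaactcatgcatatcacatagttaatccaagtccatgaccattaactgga
mt-Nd2: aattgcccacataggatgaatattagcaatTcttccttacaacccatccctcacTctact
Gm13339: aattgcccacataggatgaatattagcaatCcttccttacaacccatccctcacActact

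Over their aligned parts, mt-Co2 matched Gm28661 at 681 of 681 bases, mt-Atp6 matched Gm10925 at 678 of 678, and mt-Nd4 matched Gm28439 at 876 of 876. For mt-Nd3 and Gm28438 the figure was 344 of 345. For mt-Co1, which had 3478861 counts, the aligned part of its main partner Gm29216 matched at 486 of 492 bases, with 6 mismatches. That alignment leaves out its other partners: mt-Co1 shared 28.7% of its stretches with Gm29216, and 51.1% with 3 genes together. The share of mt-Nd4, which had 0 counts, was 62.2%. The nuclear copy Gm10222, identical to mt-Nd4l over 294 bases, had 402 counts where mt-Nd4l had 1. Whether shared sequence accounts for the missing counts was not tested, and the 7 genes are not analysed further.

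**Figure D1:**
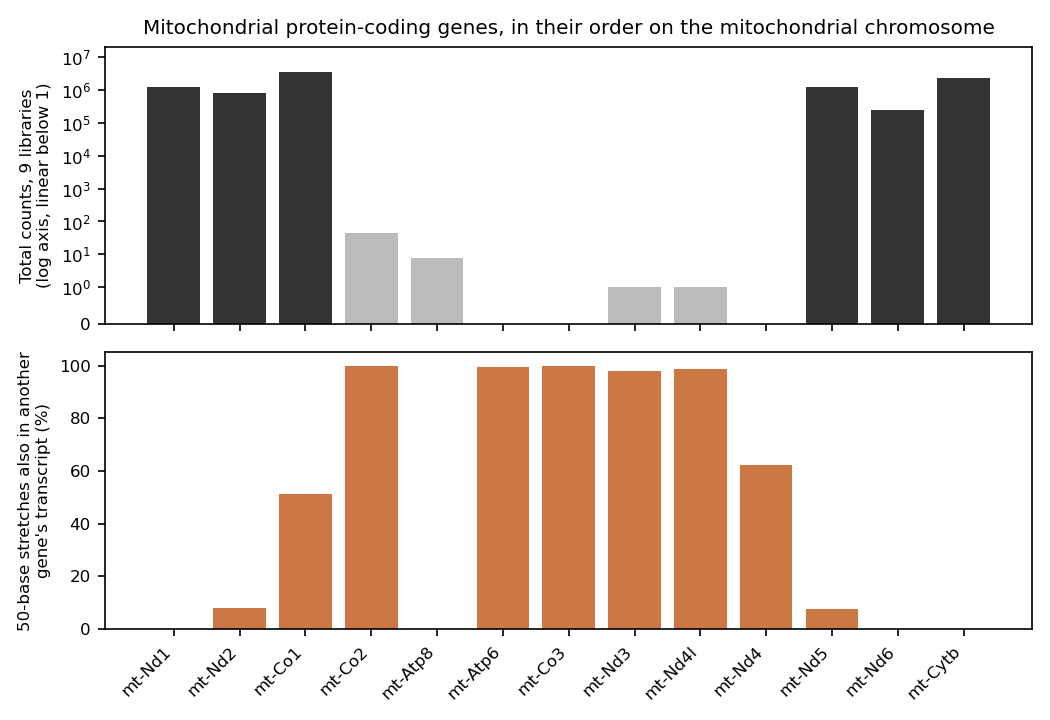
Total counts over 9 libraries (upper panel, log axis that is linear below 1; dark bars are the 6 members, grey bars genes under the minimum of 90 counts) and the share of 50-base stretches also found in another gene's transcript (lower panel, percent) for the 13 mitochondrial protein genes in chromosomal order. The 7 genes from mt-Co2 to mt-Nd4 have 45 counts or fewer, and 6 of them share 62.2% to 100% of their stretches, while mt-Atp8 shares 0%.

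In the control libraries the 6 mt-encoded members stood far above the nuclear ones. Per kilobase of transcript, mt-encoded levels ran from 1690 (mt-Nd6) to 7660 CPM (mt-Co1), with a median of 3500 CPM per kb. The 78 nuclear members ran from 1.27 to 583 CPM per kb, with a median of 69.2, against 7.03 for all tested genes of known length. The lowest of the mt-encoded levels was that of mt-Nd6 at 1690 ± 58.5 CPM per kb (SD, n = 3), the only protein gene on the opposite strand of the mitochondrial DNA. Without strand, reads of mt-Nd6 and of transcripts running the other way over it cannot be told apart.

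Levels among the members of a complex, as grouped by prefix, were far from equal. These ranges do not compare only subunits assembled in fixed proportions. They include Sdhaf2, which is not a subunit, and low isoforms such as Cox4i2 and Atp5g2. In complex I the highest nuclear level was that of Ndufa4 at 212 ± 4.77 CPM per kb (SD, n = 3), a small subunit that later work placed in complex IV, and the lowest that of Ndufab1 at 2.50 ± 0.158, the mitochondrial acyl carrier protein. The rank of Ndufab1 rests on a transcript of 3479 bases and on a gene that shares 12.3% of its 50-base stretches, and before division by length Ndufa4l2 and Ndufb4 were lower, at 2.53 and 3.71 CPM against 8.69. In complex II the level of Sdha, the flavin-carrying subunit that oxidises succinate, was 136 ± 1.98 CPM per kb. The lowest there was Sdhaf2, at 10.44, 10.16 and 9.45 CPM per kb. In complex III they ran from 168 ± 6.36 for Uqcr10, a small accessory subunit, down to 32.1 ± 1.44 for Uqcrb, which lies near the quinone site. Uqcrb shares 43.4% of its 50-base stretches, and the next lowest, Uqcrq, stood at 60.5 ± 6.54 and shares 0%. In complex IV they ran from 583 ± 42.3 for Cox4i1, the regulatory subunit IV, to 1.27 ± 0.337 for its lung-enriched isoform Cox4i2. In complex V they ran from 495 ± 26.3 for Atp5b, the catalytic beta subunit, to 1.33 ± 0.096 for Atp5g2. The median nuclear level per kb was 69.8 in complex I, 50.6 in complex II, 96.8 in complex III, 63.8 in complex IV and 63.9 in complex V.

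Where a subunit has several genes, a single form carried most of the signal. Cox7a2, the ubiquitous form of subunit VIIa, stood at 110 ± 8.93 CPM per kb in the controls, and Cox7a1, the heart and skeletal muscle form, at 3.35 ± 0.323. Ndufa4l2, the hypoxia-inducible relative of Ndufa4, stood at 2.71 ± 0.290. The 3 genes that encode the same mature c subunit of the ATP synthase rotor were ordered Atp5g3, Atp5g1 and Atp5g2, at 280 ± 7.30, 8.75 ± 0.881 and 1.33 ± 0.096 CPM per kb. The value of Atp5g1 rests on a transcript of 4715 bases, against 723 for Atp5g3, and on a gene that shares 11.6% of its 50-base stretches. Before division by length, Atp5g3 had 58775 counts in all 9 libraries and Atp5g1 had 11698. Cox8a, the ubiquitous subunit VIII, stood at 534 ± 48.5 CPM per kb, while its muscle form Cox8b had 41 counts in all 9 libraries and Cox8c, a form best known from testis, had 0. Cox7b stood at 49.6 ± 1.16 CPM per kb, and its relative Cox7b2 had 51 counts in all. These differences between forms were much larger than the spread between control libraries.

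Some of the low levels belong to genes that share sequence with other annotated genes. Any other gene entry was counted, so genes that overlap a member in place were not separated from copies elsewhere. Of the 78 nuclear members, 28 shared at least 10% of their 50-base stretches with another gene's transcript and 34 shared none. The shares were 87.4% for Atp5g2, 84.9% for Atp5l (subunit g of complex V), 53.0% for Cox7c and 50.3% for Atp5o, the stalk subunit that confers oligomycin sensitivity. For Atp5o the main partner, with 24.6%, is a second gene entry of the same name. Several genes that share stretches with a member had more counts than the member itself. Gm10221 had 14114 counts against 1487 for Atp5l, Gm10250 had 29862 against 9519 for Atp5h, BC002163 had 14435 against 2918 for Ndufs5, Gm11273 had 32142 against 15303 for Cox5b, and Gm4459 had 4847 against 2516 for Ndufab1. These shared 52.5%, 46.0%, 31.1%, 25.9% and 10.8% of the member's stretches, in that order. The levels of such members are therefore uncertain. Among the 50 nuclear members that shared under 10%, the median was 80.2 CPM per kb. Cox4i2, Cox7a1 and Ndufa4l2 shared 0%, so no other annotated transcript holds any 50-base stretch of these low isoforms.

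**Figure D2:**
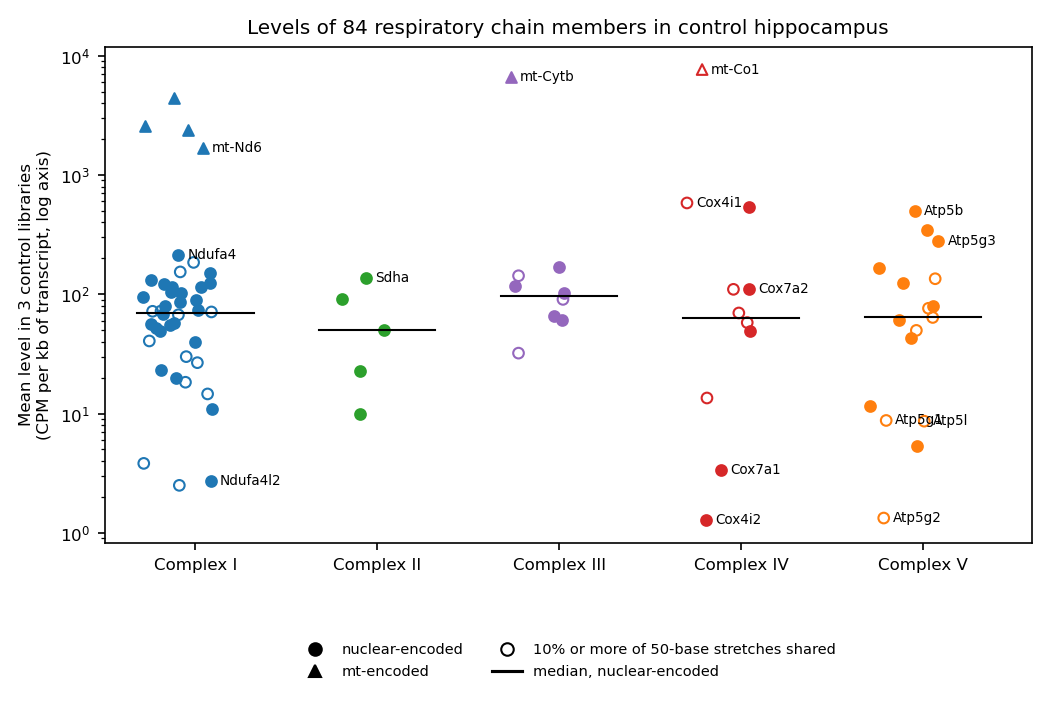
Mean level of each of the 84 members in the 3 control libraries, in CPM per kb of transcript on a log axis, by complex; circles are nuclear-encoded members, triangles mt-encoded members, open symbols share at least 10% of their 50-base stretches with another gene, and lines mark the nuclear medians. The mt-encoded members lie at 1690 CPM per kb and above, over every nuclear member, of which Cox4i1 is the highest at 583.

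The nuclear members were steadier between control libraries than the typical gene. The median coefficient of variation over the 3 control libraries was 4.94% for nuclear members and 7.12% for mt-encoded members, against 7.96% for all 16438 genes tested and 5.68% for genes at 30 CPM or more.

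Against this spread, no member passed the test with either hairpin. With edgeR's quasi-likelihood test and Benjamini-Hochberg adjustment over all 16438 genes, 0 of 84 members were called at an adjusted p under 0.05 with shRNA A, where 0.0243% of all genes were called. With shRNA B the count was 0 of 84, where 1.02% of all genes were called, and for the mean of both hairpins against control it was 0 of 84, where 0.0973% were called. The lowest adjusted p of any member (edgeR) was 0.687 with shRNA A, 0.272 with shRNA B and 0.361 for the mean. At an unadjusted p under 0.05, 6 members were higher with shRNA A and 0 lower, where 3.52% and 3.39% of all genes were. With shRNA B, 2 were higher and 2 lower, where 6.41% and 6.42% of all genes were, and for the mean 2 were higher and 2 lower, where 5.22% and 5.18% were. DESeq2 and limma-voom also called 0 members in each of these comparisons. In tissue samples such as these, fewer cells of a type and less RNA per cell cannot be told apart.

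The intervals show how large a change could have gone unseen. The 95% interval of the fold change lay inside 1.5-fold in both directions for 80 of 84 members in the shRNA A comparison and 81 of 84 in that of shRNA B. It lay inside 1.2-fold for 53 and 62. The members with wider intervals were Atp5g2, Cox4i2, Cox7a1 and Ndufb4 with shRNA A, and Atp5g2, Atp5l and Cox4i2 with shRNA B. Atp5g2, Cox4i2 and Cox7a1 are low isoforms, while Atp5g2, Atp5l and Ndufb4 share 87.4%, 84.9% and 37.0% of their stretches. The median standard error of a member's log2 fold change was 0.07.

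**Figure D3:**
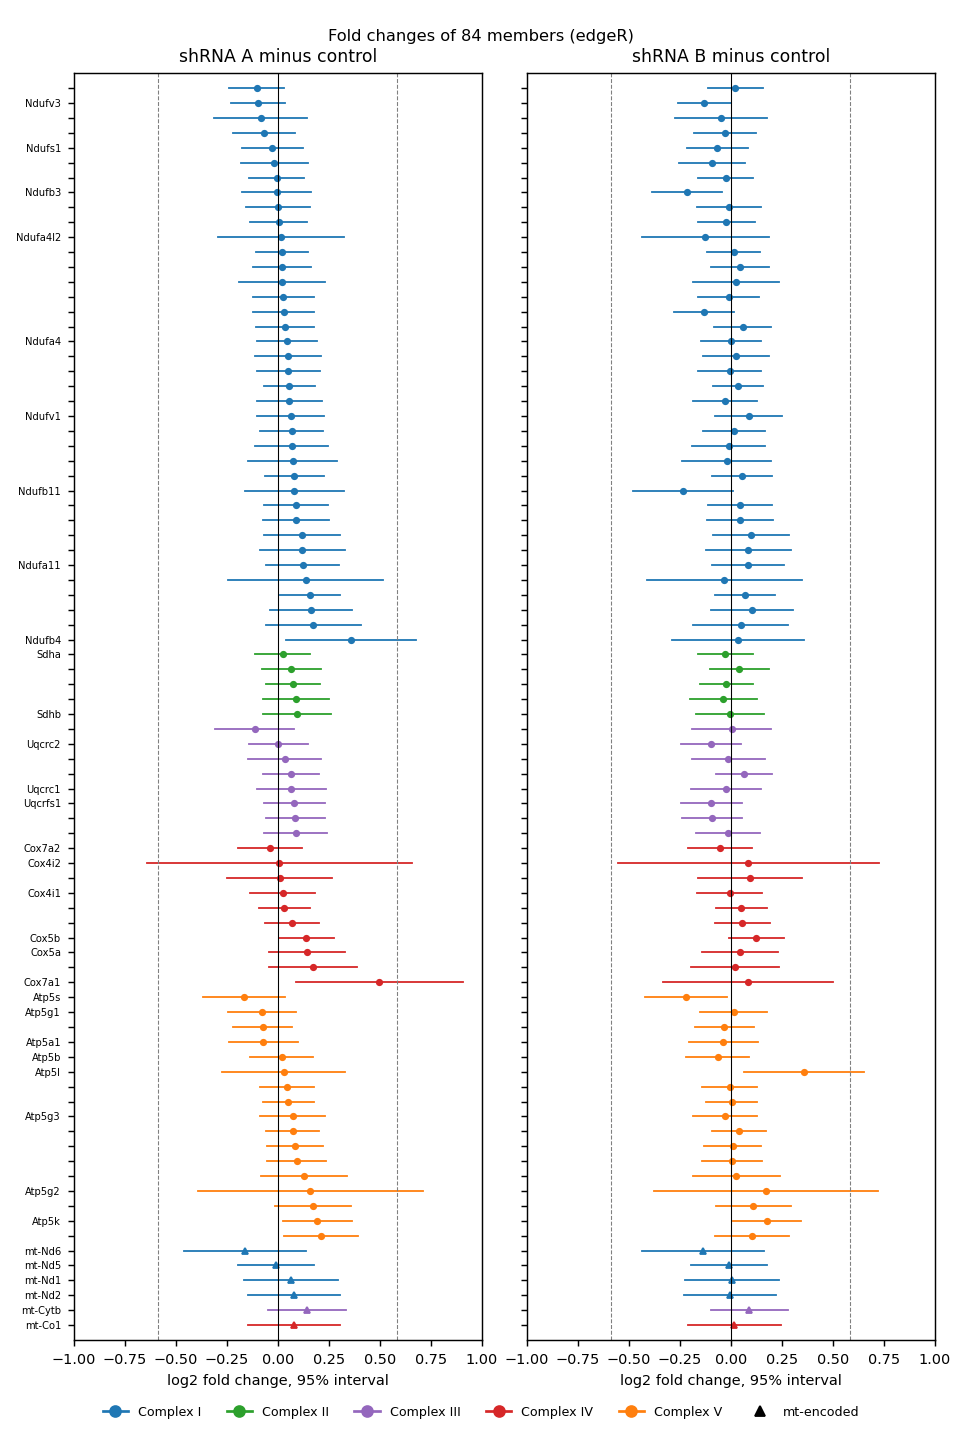
log2 fold change of each of the 84 members with its 95% interval (edgeR), shRNA A minus control on the left and shRNA B minus control on the right, coloured by complex and ordered within it by the shRNA A value, with triangles for mt-encoded members and names for some of the members described in the text; dashed lines mark 1.5-fold in either direction. The intervals of 80 members (left) and 81 members (right) stay between the dashed lines.

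In complex I, the core subunits that carry electrons stayed close to their control levels. Ndufv1, which binds NADH and the flavin, stood at 169, 176 and 164 CPM in the controls, 169, 167 and 196 under hairpin A, then 170, 186 and 186 under hairpin B. The groups overlapped, and the log2 fold changes were 0.06 and 0.09. Ndufs1, the large iron-sulfur subunit, stood at 143, 139 and 131 CPM, then 146, 128 and 132, then 134, 125 and 136. Its groups overlapped too, with log2 fold changes of -0.03 and -0.07. Of the 38 nuclear members of complex I, 30 were above 0 in the shRNA A comparison, as were 19 in that of shRNA B, with medians of 0.05 and 0.01.

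Among accessory subunits of complex I, the value furthest above 0 was that of Ndufb4 with shRNA A (log2 fold change 0.36, groups overlapping, edgeR adjusted p = 0.709). Ndufb10, which like Ndufb4 belongs to the membrane arm and was singled out after its values were seen, had 0.16 with shRNA A (edgeR adjusted p = 0.720). Ndufb10 stood at 107.8, 114 and 111.5 CPM in the controls, 118.8, 117.1 and 136.1 under hairpin A, then 116.1, 117.4 and 116.2 under hairpin B, and both hairpin groups lay above all controls. On the other side, Ndufb11 had -0.23 with shRNA B, with groups overlapping. Ndufb3, of the membrane arm, stood at 41.6, 43.1 and 40.8 CPM in the controls, 41.5, 38.1 and 45.4 under hairpin A, then 35.2, 34.0 and 39.0 under hairpin B. All 3 shRNA B libraries lay below every control, while shRNA A overlapped the controls. The log2 fold change with shRNA B was -0.21 (95% interval -0.38 to -0.04, edgeR adjusted p = 0.272). Ndufv3, an accessory subunit of the NADH-oxidising module, stood at 63.6, 63.7 and 62.0 CPM in the controls, 56.7, 59.3 and 60.9 under hairpin A, then 54.5, 58.3 and 60.4 under hairpin B. Both hairpin groups lay below all controls, with log2 fold changes of -0.10 and -0.13 and edgeR adjusted p of 0.772 and 0.393. Over all members, groups did not overlap in 8 higher and 2 lower with shRNA A, where 6.84% and 5.65% of all genes did so, and in 6 higher and 4 lower with shRNA B, where 9.27% and 8.88% did so. These shares are near the background.

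In complex II the median standard error of the log2 fold change was 0.067 with shRNA A and 0.066 with shRNA B. Over all members it was 0.074 with each hairpin. Sdha stood at 398, 396 and 387 CPM in the controls, 405, 394 and 401 under hairpin A, then 395, 365 and 401 under hairpin B. The groups overlapped, and the log2 fold changes were 0.02 (95% interval -0.11 to 0.16) and -0.03 (-0.16 to 0.11). Sdhb, the iron-sulfur subunit, had log2 fold changes of 0.09 and 0.00, and the membrane anchors Sdhc and Sdhd had 0.07 each in the shRNA A comparison, then 0.04 and -0.02 in that of shRNA B. Sdhaf2 had 0.09 and -0.04.

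In complex III, the core proteins Uqcrc1 and Uqcrc2 and the Rieske iron-sulfur protein Uqcrfs1 stood at 103 ± 5.51, 90.6 ± 4.41 and 65.2 ± 4.35 CPM per kb in the controls (SD, n = 3). Uqcrfs1 stood at 91.6, 92.9 and 82.1 CPM in the controls, 97.1, 91.2 and 93.8 under hairpin A, then 83.8, 78.5 and 87.3 under hairpin B. Each hairpin group overlapped the controls, with log2 fold changes of 0.08 and -0.10 (edgeR adjusted p = 0.835 and 0.625). Uqcrc1 had 0.07 and -0.02, and Uqcrc2 had 0.00 and -0.10. Of the 8 nuclear members, 7 were above 0 in the shRNA A comparison, as were 2 in that of shRNA B.

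In complex IV, Cox4i1, the highest nuclear member per kb, stood at 459, 470 and 409 CPM in the controls, 442, 433 and 484 under hairpin A, then 443, 431 and 459 under hairpin B. The groups overlapped, with log2 fold changes of 0.02 and -0.01. Cox5a, which binds the matrix side of the complex, had 0.14 and 0.05, and Cox5b, a zinc-binding subunit, had 0.14 and 0.13. Cox5b stood at 50.7, 52.0 and 47.5 CPM in the controls, 53.9, 54.5 and 57.1 under hairpin A, then 53.1, 53.2 and 57.6 under hairpin B. All 6 hairpin libraries lay above all controls, but the edgeR adjusted p was 0.720 and 0.425, and the gene shares 25.9% of its stretches with Gm11273. Control replicate 3, with the choroid plexus markers, was the lowest.

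Cox7a1 had the largest log2 fold change of any member with shRNA A, at a level near 1 to 2 CPM. It stood at 1.42, 1.18 and 1.35 CPM in the controls, 1.66, 2.06 and 1.87 under hairpin A, then 1.396, 1.19 and 1.61 under hairpin B. The shRNA A libraries lay above the controls and the shRNA B libraries overlapped them, with log2 fold changes of 0.50 (95% interval 0.09 to 0.91, edgeR adjusted p = 0.687) and 0.09. Its abundant counterpart Cox7a2 had -0.04 and -0.05, and the related Cox7a2l had 0.03 and 0.05. For Cox4i2, with log2 fold changes of 0.01 and 0.09, the 95% intervals ran from -0.64 to 0.66 and from -0.55 to 0.72, so the data do not bound its change within 1.5-fold.

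In complex V the catalytic subunits again overlapped between groups. Atp5b stood at 970, 983 and 890 CPM in the controls, 955, 917 and 1007 under hairpin A, then 916, 863 and 941 under hairpin B, with log2 fold changes of 0.02 and -0.06. Atp5a1, the alpha subunit, had -0.07 and -0.04. The c subunit genes had 0.07 and -0.03 (Atp5g3), -0.08 and 0.01 (Atp5g1), and 0.16 and 0.17 (Atp5g2, whose intervals pass 1.5-fold).

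The largest complex V value with shRNA A was that of Atp5j2, subunit f of the membrane part, singled out after its values were seen. Atp5j2 stood at 57.2, 59.5 and 56.3 CPM in the controls, 65.4, 58.8 and 76.0 under hairpin A, then 60.95, 60.3 and 64.9 under hairpin B. The shRNA A group overlapped the controls and the shRNA B group lay above them, with log2 fold changes of 0.21 and 0.10 (edgeR adjusted p = 0.702 and 0.668). Atp5sl, a gene named for its likeness to Atp5s, had 0.17 and 0.11, with the shRNA A group above all controls (edgeR adjusted p = 0.741). Atp5k, subunit e, stood at 16.2, 15.5 and 15.8 CPM in the controls, 18.8, 17.4 and 18.2 under hairpin A, then 17.8, 16.6 and 19.3 under hairpin B. Every hairpin library lay above every control, with log2 fold changes of 0.19 and 0.18 and edgeR adjusted p of 0.702 and 0.362. Atp5l, subunit g, stood at 5.26, 4.71 and 4.12 CPM in the controls, 4.79, 5.34 and 4.22 under hairpin A, then 5.40, 6.00 and 6.69 under hairpin B. All 3 shRNA B libraries lay above the controls and the shRNA A libraries overlapped them, with, for shRNA B, a log2 fold change of 0.36 (edgeR adjusted p = 0.290), at a gene that shares 84.9% of its stretches with others. Atp5s, a coupling factor, had -0.17 and -0.22, with both hairpin groups below all controls and edgeR adjusted p of 0.752 and 0.345.

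The 6 mt-encoded members overlapped between groups, apart from mt-Cytb with shRNA A. mt-Cytb, the cytochrome b of complex III, stood at 7761, 7701 and 7359 CPM in the controls, 8672, 7943 and 8590 under hairpin A, then 8779, 7196 and 8337 under hairpin B. The shRNA A libraries lay above the controls, with a log2 fold change of 0.14 (edgeR adjusted p = 0.771), and shRNA B gave 0.09. mt-Co1, the catalytic subunit of complex IV, stood at 13020, 11460 and 11010 CPM, then 13410, 11880 and 12200, then 13020, 10340 and 12550. Its log2 fold changes were 0.08 and 0.02. For mt-Nd1, mt-Nd2 and mt-Nd5, membrane subunits of complex I, the log2 fold changes lay between -0.01 and 0.08.

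mt-Nd6 was the lowest mt-encoded member and had the lowest fold changes of the 6. It stood at 914, 865 and 858 CPM in the controls, 907, 847 and 607 under hairpin A, then 747, 734 and 919 under hairpin B. The log2 fold changes were -0.16 and -0.14 (edgeR adjusted p = 0.837 and 0.752). A single library, shRNA A replicate 3, was far below the rest, and without it the shRNA A value was -0.003.

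Nuclear and mt-encoded members had their highest and lowest medians in different libraries. The median nuclear member, as a log2 difference from the control mean, was highest in shRNA A replicate 3 at 0.11 and lowest in control replicate 3 at -0.06. The median mt-encoded member was highest in shRNA A replicate 1 at 0.17 and lowest in shRNA B replicate 2 at -0.18. Both medians were below 0 in control replicate 3 and shRNA B replicate 2, and both were above 0 in control replicate 1, shRNA A replicate 1 and shRNA B replicate 3. The summed mt-encoded level was 3.69 times the nuclear sum in shRNA B replicate 2 and 4.41 times in shRNA A replicate 1, and every group held values on both sides of 4. In shRNA B replicate 2, 5 of the 6 mt-encoded members had their lowest level of all 9 libraries. Control sums ran from 7503 to 8174 CPM for nuclear and from 29680 to 33920 CPM for mt-encoded members.

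The nuclear median with shRNA A moved with single libraries, in both directions. With shRNA A, 68 of 84 members had a positive log2 fold change, where 50.1% of all genes did, and the nuclear median was 0.06 against 0.00 for all genes. With shRNA B, 44 of 84 were positive, where 50.3% of all genes were, and the nuclear median was 0.01. shRNA A replicate 3 was the highest of the 9 libraries in 40 of 78 nuclear members (51.3%, against 16.0% of all genes), and control replicate 3 the lowest in 29 (37.2%, against 9.03%). The pattern was not particular to the members: among 82 cytosolic ribosomal protein genes these shares were 35.4% and 32.9%. Of those 82 genes, 62 were positive with shRNA A and 69 with shRNA B. Without shRNA A replicate 3 the nuclear median was 0.02 and 52 of 84 members were positive. Its removal took the shRNA A value of Cox5a from 0.14 to 0.04, of Sdhb from 0.09 to 0.01, of Ndufv1 from 0.06 to -0.02 and of Atp5g3 from 0.07 to -0.01. Without control replicate 3 the nuclear median was 0.03 and 54 of 84 were positive. Other removals raised it: the nuclear median was 0.09 without shRNA A replicate 2 (71 of 84 positive) and 0.08 without control replicate 2 (65 of 84). The third of tested genes with the shortest transcripts and the highest GC share also had its highest median in shRNA A replicate 3, at 0.13. The median log2 fold change of that class was 0.05 with each hairpin, and that of the nuclear members was 0.06 with shRNA A and 0.01 with shRNA B. The median nuclear member has a transcript of 921 bases, against 2895 for all tested genes, and a GC share of 51.4%, against 50.5%. The part of transcript length and GC content in these shifts was not tested. Nor was that of choroid plexus RNA in control replicate 3, or of neuronal, astrocyte, oligodendrocyte, microglial and meningeal content.

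**Figure D4:**
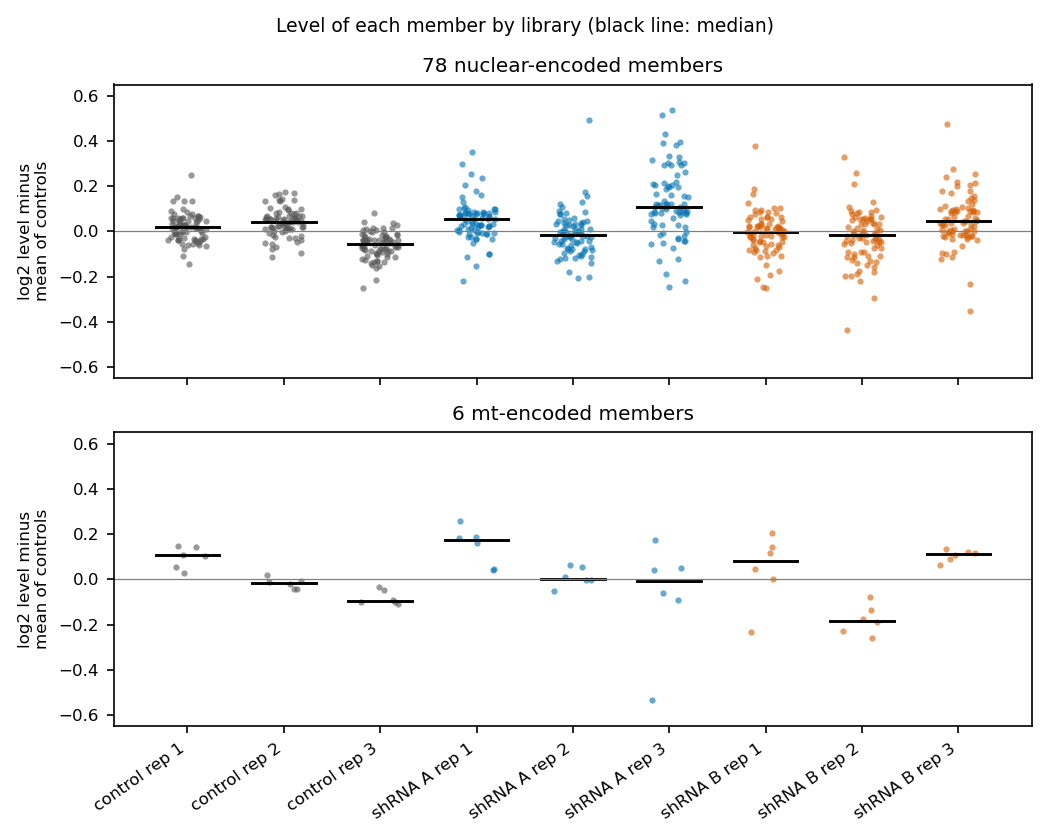
Each point is a member's log2 level minus its mean in the controls, for 78 nuclear-encoded members (upper panel) and 6 mt-encoded members (lower panel) in each of the 9 libraries, with black lines at the medians. The nuclear median is highest in shRNA A replicate 3 (0.11) and lowest in control replicate 3 (-0.06), and the mt-encoded median is lowest in shRNA B replicate 2 (-0.18).

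Compared directly, the hairpins gave 0 of 84 members called for shRNA B minus shRNA A, where 0% of all genes were called by edgeR, and the lowest edgeR adjusted p of a member was 0.401. At an unadjusted p under 0.05, 1 member was higher and 7 were lower, where 4.55% and 4.79% of all genes were, and the groups did not overlap for 3 higher and 7 lower, where 7.29% and 6.95% of all genes did not. The lowest p was that of Ndufb11, an X-linked membrane-arm subunit of complex I, singled out after its values were seen. Ndufb11 stood at 59.9, 58.9 and 75.1 CPM under hairpin A, then 51.3, 44.95 and 59.7 under hairpin B, and the groups overlapped, with a log2 difference of -0.32. Its highest value was in shRNA A replicate 3 and its lowest in shRNA B replicate 2. The 95% interval of the difference lay inside 1.5-fold for 80 of 84 members. The comparisons with control share the same 3 control libraries, so their values are set side by side and not counted as agreement.

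The other genes of the pathway were counted from lists. Of 35 assembly factors tested, which build and insert the cofactors of the complexes, 0 were called in any of the 4 comparisons, with medians of 0.02 with shRNA A and 0.00 with shRNA B. Of 20 genes for copying, transcribing and processing mitochondrial DNA and its RNA, 0 were called, with medians of -0.01 and 0.04. Of 14 biogenesis regulators, among them Ppargc1a, Nrf1 and Gabpa, 0 were called, with medians of 0.01 and -0.08. The 19 citric acid cycle genes and the 16 glycolysis genes also had 0 calls, with medians of 0.02 and -0.01 for the former and -0.08 and -0.05 for the latter. Of 11 subunits outside the symbol prefixes, 1 was called with each hairpin. This was Cox6b2, a complex IV isoform best known from testis, at 1.71 ± 0.524, 6.23 ± 0.875 and 4.76 ± 1.38 CPM (SD, n = 3) in control, shRNA A and shRNA B, with log2 fold changes of 1.85 and 1.47 (edgeR adjusted p = 0.039 and 0.0239). The groups did not overlap with either hairpin. The call did not hold in 8 of 18 alternatives with shRNA A, where the adjusted p ran from 9.28e-10 (DESeq2) to 0.258 (edgeR, without control replicate 2) and was 0.0827 with limma-voom and 0.174 to 0.196 in edgeR without any 1 of the shRNA A libraries. With shRNA B it did not hold in 5 of 18, where the adjusted p ran from 2.27e-06 (DESeq2) to 0.106 (edgeR, without control replicate 2). The log2 fold change stayed between 1.65 and 2.09 with shRNA A and between 1.22 and 1.70 with shRNA B in all of these.

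Promoter sequences from RefSeq (GRCm38.p6, 300 bases around each start) were at hand for 66 of the 78 nuclear members. NRF1 and YY1 are factors known from promoters of respiratory chain genes, and exact matches to a fixed form of each motif were counted on both strands. GCGCATGCG, from the NRF1 palindrome, occurred in 7 of 66 members (10.6%) and in 3.73% of tested genes with a promoter. AAGATGGCG, the YY1 core, occurred in 8 members (12.1%) and in 3.16% of tested genes. CCGGAAGT, an ETS motif, occurred in 5 members (7.58%) and in 8.03% of tested genes. CGCG, a string common in CpG-rich promoters, occurred in 52 members (78.8%) and in 72.4% of tested genes. None of these strings contains another. The stretch of Atp5k, whose hairpin libraries all lay above the controls, is shown beside that of Ndufa11, a membrane-arm subunit whose groups overlapped, with the motif in capitals. They lie upstream of the start at chr5:108434415-108434474 on the minus strand and at chr17:56717677-56717736 on the plus strand.
Atp5k: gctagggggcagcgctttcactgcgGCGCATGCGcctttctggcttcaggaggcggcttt
Ndufa11: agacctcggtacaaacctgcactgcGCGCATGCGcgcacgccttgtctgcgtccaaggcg

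A match describes the letters of these windows and not a bound factor. Ndufa11 stood at 38.3, 42.5 and 37.6 CPM in the controls, 41.7, 39.7 and 47.4 under hairpin A, then 40.0, 40.9 and 44.6 under hairpin B, with log2 fold changes of 0.12 and 0.08, and it was chosen for the motif.

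The authors' deposited table, with its own likelihood ratio test over the 3 groups, lists 0 of 84 members at an adjusted p under 0.05, where 379 of 15093 genes pass. In the authors' deposited table the lowest member value is 0.317, at Ndufb11.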

How the data were processed

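The authors deposited raw read counts per Ensembl gene, per the file headers, on build mm9 per the submitters' processing notes. Those notes list HTSeq 0.6.1, TopHat 1.4.1 and SAMtools 0.1.19, and also R 3.1.1 with DESeq2 1.4.5. Which annotation was counted was not given in the sources used here. The authors' deposited table also holds a mean normalized signal, log2 fold changes with standard errors, a likelihood ratio test score, and its p-value and adjusted p-value, per the file headers. Symbols came from that table for 20478 genes and from a gene name table for 6546. Every per-sample column was matched to a label.

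Counts were tested with edgeR 4.0.16 in R 4.3.3 (quasi-likelihood F test with robust estimation, TMM scaling, filterByExpr, Benjamini-Hochberg over 16438 genes, threshold 0.05, two-sided), with all 9 libraries sharing one estimate of the spread. The filter kept all 84 members. Levels are TMM-scaled CPM, and log2 levels used CPM + 0.5. Levels per kb used the length of the principal GENCODE M21 transcript. The annotation (GRCm38) is of another build than the counts, so it served for lengths and sequences only. Stretches of 50 bases were compared on both strands.

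The 84 members, the gene lists and the named-gene rule were chosen with earlier results of these data known. Named were the mt-encoded members, the highest and lowest nuclear member per kb of each complex, a fixed list of catalytic subunits (not all of them reported here), the isoform groups, and the 3 largest shifts in each direction among members whose groups did not overlap, for each hairpin against control. Promoter motifs were exact matches in RefSeq windows of 300 bases, those of NRF1 and YY1 shortened by 1 base after a first search with longer forms, for reasons of printing and not of the counts found. The test was run on simulated counts with known changes. Alternatives were 9 other settings, among them DESeq2 1.42.0, limma-voom (limma 3.58.1) and a replicate block, and leaving out each of the 9 libraries. Replicate libraries differed by more than counting noise (chi-square per degree of freedom 7.9 to 20.9). If they did not come from separate animals, as the design states, p-values measure only the spread between these samples. Intervals and floors from counts leave out amplification, as the sources name no molecular identifiers.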

Additional observations from a re-analysis of the deposited data

How the results depend on the processing

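Under all alternatives run, 0 of 84 members were called in each of the 4 comparisons. The lowest edgeR adjusted p of a member was 0.0978, for shRNA B minus shRNA A without shRNA B replicate 3, where 110 of all genes were called. Medians stayed within 1 SD of the library medians (0.0506 nuclear, 0.125 mt-encoded), but some changed sign. With 1 library left out, the nuclear median lay between 0.02 (without shRNA A replicate 3) and 0.09 with shRNA A, and between -0.03 (without control replicate 3) and 0.03 with shRNA B. The mt-encoded median lay between -0.001 (without shRNA A replicate 1) and 0.14 with shRNA A, and between -0.06 and 0.10 (without shRNA B replicate 2) with shRNA B. Scaling by library totals alone raised the members above 0 with shRNA B from 44 to 57. Of the values of named members, 25 moved by more than their standard error and 2957 did not.

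Calls over all genes moved more. They were 4, 167, 16 and 0 for shRNA A, shRNA B, their mean and shRNA B minus shRNA A, and 43, 386, 243 and 123 with DESeq2. With limma-voom they were 0, 95, 13 and 0. Without the low-count filter they were 9, 208, 67 and 21. Fitting only the groups compared gave 18 for shRNA A and 42 for shRNA B, and was not run for the mean, which needs all groups. Without robust estimation shRNA A had 2. Leaving out 1 library gave 0 to 10 for shRNA A, 13 to 217 for shRNA B, 1 to 52 for the mean and 0 to 110 between hairpins.

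The labels number replicates 1 to 3 in each group. Same-numbered libraries correlated between -0.127 and 0.317 in their deviations from the group means, so the numbers were not taken as pairs. With the replicate block, 0 members were called in each comparison, the nuclear medians were 0.06 with shRNA A, 0.01 with shRNA B, 0.03 for the mean and -0.05 between hairpins, and 5, 148, 31 and 1 of all genes were called. The widest intervals were those of Cox4i2, Atp5g2 and Cox7a1, which stood near 1 to 2 CPM; counting error and spread between animals were not separated there.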
